A study of Mus musculus with 8 samples.

Results

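Molecular chaperones of the cytosol, the endoplasmic reticulum (ER) and the mitochondria were followed as a set of 50 genes, chosen by symbol from the 20484 genes of the expression table. The set holds 2 heat shock factors, 15 cytosolic heat shock chaperones and co-chaperones, 8 subunits of the CCT chaperonin, 16 ER chaperones and folding enzymes, 5 genes of the ER stress response and ER-associated degradation, and 4 mitochondrial chaperones. The rule that picks them names symbols and uses no measured value, though the list was drawn up with earlier results of these data known. RNA came from the mouse line RN2, an acute myeloid leukaemia model on a C57BL/6J background that carries MLL-AF9 and an NRAS allele given in the labels as G112D, so the DMSO controls carry both oncogenes too. There were 4 treatments of 2 libraries each: the solvent DMSO alone, BBC1115, OTX-015 and RVX-208. RVX-208 (apabetalone) and OTX-015 (birabresib) are inhibitors of the BET proteins, readers of acetylated histones, the former with a preference for the second bromodomain. BBC1115 is known here by its code name, and the series title places it in a screen for compounds against BET proteins. Doses and times of treatment are not stated in the labels, so the compounds are not matched for dose. The libraries of a group are labelled biological replicates of 1 cell line, and the p-values measure the spread between these libraries.

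Levels are RPKM, reads divided by transcript length and library size, and the estimated depth of a library ran from 10800000 to 18000000 reads. Replicates correlated across genes with r of 0.991 to 0.9945. All 10 myeloid leukaemia markers had a mean over all libraries of at least 1 RPKM. Their summed level was 3701 to 4158 RPKM with DMSO, 3473 to 3482 with RVX-208, 1963 to 2175 with OTX-015 and 1816 to 2060.3 with BBC1115. The part of this shift in the results below was not tested. Of the 7 T and NK cell markers 1 (Nkg7) had such a mean, and 0 did of the 5 B cell, 7 erythroid and megakaryocyte or 6 stromal markers. Myc, an oncogene that falls when BET proteins are inhibited, stood at 97.8 ± 2.72 RPKM with DMSO (SD, n = 2), 63.2 ± 1.37 with RVX-208, 3.74 ± 0.00612 with OTX-015 and 2.51 ± 0.357 with BBC1115.

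Chaperones bind unfolded or newly made proteins and help them fold. HSP70 proteins work in cycles of ATP with J-domain (DNAJ) partners, HSP90 matures kinases and receptors, and CCT is a double ring that folds actin and tubulin. The heat shock factor HSF1 drives the inducible cytosolic chaperones when unfolded proteins accumulate. In the ER the unfolded protein response, through XBP1 and ATF6, raises BiP (Hspa5), lectin chaperones, disulfide isomerases and the machinery that sends misfolded proteins to the proteasome. In mitochondria, mortalin (Hspa9) and the HSP60 and HSP10 chaperonin (Hspd1 and Hspe1) fold imported proteins.

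The promoter windows of 5 genes, from RefSeq on GRCm38.p6, show sequence features that the results below refer to. Each runs from 250 bases before to 50 bases after an annotated start, 5′ to 3′ on the gene's strand. Capitals mark matches to the heat shock element or to either form of the ER stress element, searched on both strands. Lone CCAAT boxes, searched too and present in the Hspa5, Herpud1, Hspa1a and Hspa1b windows (37.4% of all windows hold one), are left in lower case.
Hspa5, chr2:34771840-34772139, plus strand: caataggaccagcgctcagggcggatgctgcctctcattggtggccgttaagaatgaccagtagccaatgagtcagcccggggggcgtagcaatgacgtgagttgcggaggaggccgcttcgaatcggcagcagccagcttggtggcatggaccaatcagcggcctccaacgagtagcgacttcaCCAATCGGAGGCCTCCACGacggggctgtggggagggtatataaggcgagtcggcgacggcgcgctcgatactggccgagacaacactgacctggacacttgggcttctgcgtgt
Herpud1, chr8:94386179-94386478, plus strand: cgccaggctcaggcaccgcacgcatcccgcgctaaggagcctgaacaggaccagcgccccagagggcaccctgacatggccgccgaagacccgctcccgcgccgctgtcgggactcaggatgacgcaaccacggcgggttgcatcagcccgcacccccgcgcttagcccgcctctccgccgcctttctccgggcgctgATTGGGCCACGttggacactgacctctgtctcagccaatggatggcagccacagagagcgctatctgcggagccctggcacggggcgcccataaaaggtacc
Hspe1, chr1:55087898-55088197, plus strand: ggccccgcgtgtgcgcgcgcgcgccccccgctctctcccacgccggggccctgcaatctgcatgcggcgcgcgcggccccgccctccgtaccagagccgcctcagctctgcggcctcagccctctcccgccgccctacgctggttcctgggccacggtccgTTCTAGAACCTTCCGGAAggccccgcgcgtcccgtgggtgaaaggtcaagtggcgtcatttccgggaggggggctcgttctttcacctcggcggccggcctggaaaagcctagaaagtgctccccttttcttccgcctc
Hspa1a, chr17:34972107-34972406, minus strand: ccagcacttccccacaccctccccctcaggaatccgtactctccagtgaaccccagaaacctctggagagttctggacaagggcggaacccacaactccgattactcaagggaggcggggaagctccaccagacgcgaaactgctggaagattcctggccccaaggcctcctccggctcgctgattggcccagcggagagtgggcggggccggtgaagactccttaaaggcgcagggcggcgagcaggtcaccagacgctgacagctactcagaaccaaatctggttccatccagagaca
Hspa1b, chr17:34959189-34959488, minus strand: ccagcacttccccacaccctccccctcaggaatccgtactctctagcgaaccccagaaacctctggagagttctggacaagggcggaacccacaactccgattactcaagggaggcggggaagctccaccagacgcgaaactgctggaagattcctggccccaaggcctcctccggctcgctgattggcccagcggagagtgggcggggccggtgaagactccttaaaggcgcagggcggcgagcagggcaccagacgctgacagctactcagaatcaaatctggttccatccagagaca
Hspa5 shows the ER stress element, searched as CCAAT, then 9 bases, then CCACG. Such a match lay in the windows of 7 of the 13 ER folding genes with one (Hspa5, Hsp90b1, Dnajc3, Creld2, Pdia6, Calr and Canx) and of Syvn1, against 0.12% of all 32544 windows. Herpud1 shows the second form of the element, ATTGG, 1 base, CCACG, which stood also in Dnajb11 and in 0.0369% of all windows. Hspe1 shows the heat shock element, searched as 3 units of GAA and TTC in turn, 2 bases apart, and its capitals join 2 overlapping matches. A match stood also in Hspd1, Hsph1 and Chordc1 and in 0.608% of all windows. Hspe1 and Hspd1 lie head to head on chromosome 1, with gene bodies that overlap by 112 bases. Hspd1 has windows for 2 annotated starts, and its heat shock matches lie in the one that overlaps most of the Hspe1 window (chr1:55087883-55088182), while the other window holds no heat shock match. The windows of Hspa1a and Hspa1b differ at 4 of 300 bases. Of the 50 genes, 41 had a window, 49 windows in all, and a match describes letters only. Looser spellings were not searched, so a window without capitals, such as that of Hspa1a or Hspa1b, may still hold such an element.

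Of the 50 genes, 49 passed the filter of at least 1 RPKM in at least 2 libraries. The remaining gene, Hspb1 (the small heat shock protein HSP27), was listed at 0 in 6 libraries and at 0.1 and 0.0913 RPKM with OTX-015, about 1 read each. Hspa1a passed only through the OTX-015 and BBC1115 libraries, and Hspa1b reached 1 RPKM with DMSO in 0 libraries. Log2 fold changes are of RPKM + 1 from limma, adjusted by the Benjamini-Hochberg method over 9975 genes, with calls at adjusted p under 0.05. Folds are mean RPKM of one group over that of the other. In these bulk samples fewer cells of a type and less RNA per cell cannot be told apart.

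With RVX-208, 0 of the 49 genes passed the test, where 0.17% of all genes did (0.0902% higher, 0.0802% lower), and 12 had an unadjusted p under 0.05, 3 higher and 9 lower, against 1820 of all 9975 genes. The smallest adjusted p was 0.142 (limma), for Hspe1, with a log2 fold change of -0.36 (95% interval -0.58 to -0.15). The 8 CCT subunits had log2 fold changes between -0.24 (Cct6a) and -0.09 (Cct2), and the 4 mitochondrial genes between -0.36 and -0.04 (Trap1). Hspa5 stood at 0.998 times its DMSO level, with an interval of the log2 fold change from -0.21 to 0.21. Without DMSO replicate 2, 3 genes passed as lower (Sdf2l1, Manf and Hspe1), and calls over all genes went from 9 higher and 8 lower to 625 and 360.

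OTX-015 raised 9 and lowered 23 of the 49 genes, or 18.4% and 46.9%, where 24.2% and 40% of all genes were called in these directions (64.3% in either). BBC1115 raised 19 and lowered 19, or 38.8% each way, beside 26.4% and 49.3% of all genes (75.6% in either). The 2 comparisons share the DMSO libraries. Calls lost under 1 or more of 19 alternative settings were those of Hspa4, Hspa5, Manf, Pdia6, Canx, Xbp1 and Herpud1 with OTX-015, and of Hsph1, Hsp90aa1, Hsp90ab1, Cct2, Hyou1, Sdf2l1, Creld2 and Canx with BBC1115. Between the compounds, 24 genes were higher and 4 lower with BBC1115 than with OTX-015, or 49% and 8.16%, beside 14.2% and 29.7% of all genes (43.9% in either). Over all tested genes the median log2 fold change stood at -0.134 (OTX-015) and -0.249 (BBC1115) on the deposited scale. Scaling the libraries to equal upper quartiles gave 15 higher and 19 lower with OTX-015 and 29 and 15 with BBC1115. Over all 9975 genes it gave 3561 and 3066, then 3743 and 3960. Quantile normalization gave 16 and 17, then 23 and 18 (all genes 3642 and 3195, then 3888 and 3844). Scaling every library to the same sum (TPM) gave 14 and 20, then 21 and 19 (all genes 3366 and 2963, then 2763 and 4747). The same 3 scalings gave 36 higher and 3 lower, 22 and 6, and 13 and 7 for BBC1115 against OTX-015. Over all genes they gave 2123 and 2741, 2273 and 2338, and 890 and 4310.

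**Figure D1:**
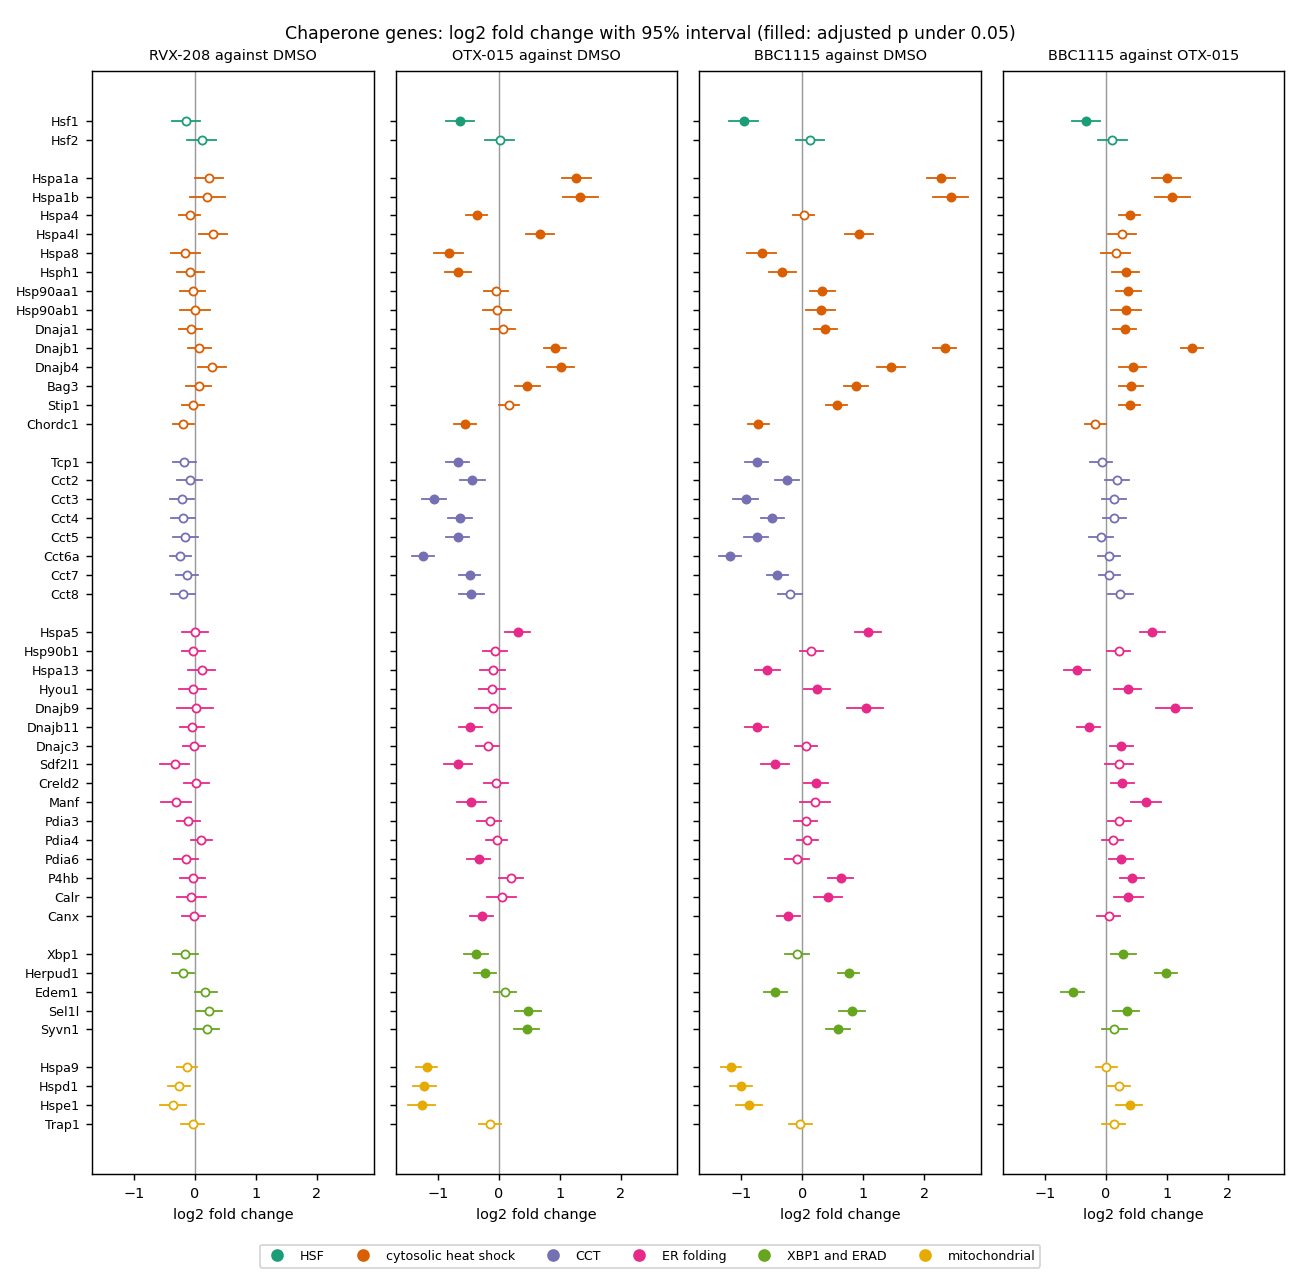
Log2 fold change of RPKM + 1 (x axis) of the 49 tested chaperone genes (y axis) in 4 comparisons, with lines for the 95% interval of the model and filled points for adjusted p under 0.05. With OTX-015 and BBC1115 the cytosolic genes Hspa1a, Hspa1b, Dnajb1, Dnajb4, Hspa4l and Bag3 lie to the right. CCT, 3 of the 4 mitochondrial genes and the cytosolic genes Hspa8, Hsph1 and Chordc1 lie to the left with both. With RVX-208 every point is open.

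The cytosolic class split into genes that rose and genes that fell. With OTX-015 6 of its 14 tested members rose (Hspa1a, Hspa1b, Dnajb1, Dnajb4, Hspa4l and Bag3) and 4 fell (Hspa8, Hsph1, Chordc1 and Hspa4). With BBC1115 10 rose, the same 6 with Hsp90aa1, Hsp90ab1, Dnaja1 and Stip1, and 3 fell (Hspa8, Hsph1 and Chordc1). With OTX-015 the shares were 42.9% and 28.6%, beside 24.2% and 40% of all genes. With BBC1115 they were 71.4% and 21.4%, beside 26.4% and 49.3%. Against the OTX-015 level 11 of the 14 were higher with BBC1115 and 0 lower, or 78.6% and 0%, beside 14.2% and 29.7% of all genes. Other scalings gave 13 and 0 (upper quartile), 10 and 1 (quantile) and 6 and 1 (TPM). With OTX-015 the other scalings gave 8 higher and 4 lower (upper quartile), 9 and 3 (quantile) and 8 and 3 (TPM).

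Hspa1a encodes an inducible HSP70. Its level was 0.465 and 0.412 RPKM with DMSO, 0.736 and 0.633 with RVX-208, 2.6 and 2.36 with OTX-015, and 5.94 and 5.98 with BBC1115. These correspond to about 25 and 15 reads, 24 and 24, 103 and 102, and 229 and 278. No library of one group overlapped another group, and the order of groups was DMSO, RVX-208, OTX-015, BBC1115. The mean was 5.65 times DMSO with OTX-015 (adjusted p = 2.33e-06, limma) and 13.6 times with BBC1115 (adjusted p = 1.08e-08). Hspa1b, the neighbouring copy, was at 0.673 and 0.724 RPKM with DMSO, 0.881 and 1.03 with RVX-208, 3.86 and 2.82 with OTX-015, and 8.54 and 7.85 with BBC1115. Its means were 4.78 and 11.7 times DMSO with OTX-015 and BBC1115. The coding sequences of the pair are 99.4% identical and the genes lie 9951 bases apart on chromosome 17, so reads may be shared between them and the split between the copies is uncertain. Their summed level was 1.14 ± 0.00173 RPKM with DMSO, 5.82 ± 0.903 with OTX-015 and 14.2 ± 0.456 with BBC1115 (SD, n = 2), or 5.11 and 12.4 times DMSO. Both genes passed the filter through the groups in which they were high.

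Dnajb1 encodes HSP40, a J-domain partner of HSP70. It stood at 14.8 and 15.4 RPKM with DMSO, 15.6 and 16.3 with RVX-208, 30.8 and 28.3 with OTX-015, and 82.6 and 78.1 with BBC1115. The OTX-015 and BBC1115 libraries lay apart from each other and above the rest. The fold was 1.96 with OTX-015 (adjusted p = 3.93e-06, limma) and 5.32 with BBC1115 (adjusted p = 1.58e-09), and the direct log2 difference between the 2 compounds was 1.41 (95% interval 1.23 to 1.6). Dnajb4, another J protein, was at 6.6 and 6.27 RPKM with DMSO, 8.76 and 7.21 with RVX-208, 14.3 and 13.8 with OTX-015, and 19.4 and 19.2 with BBC1115. It was 2.18 and 3.01 times DMSO with OTX-015 and BBC1115. Bag3, a co-chaperone that links HSP70 to autophagy, reached 1.42 and 1.91 times DMSO, and Hspa4l, an HSP110-type exchange factor, 1.66 and 2.02 times.

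Hspa8 encodes the constitutive HSC70 and was the most abundant gene of the set with DMSO. Its level was 1708 and 1759.6 RPKM with DMSO, 1557 and 1553 with RVX-208, 1013 and 948 with OTX-015, and 1101 and 1089.7 with BBC1115. All libraries of both compounds lay below the DMSO libraries, at 0.566 times with OTX-015 (adjusted p = 5.78e-05, limma) and 0.632 times with BBC1115 (adjusted p = 0.000168). The inducible pair made up 0.0656% of the summed Hspa1a, Hspa1b and Hspa8 level with DMSO, 0.588% with OTX-015 and 1.28% with BBC1115. Chordc1, an HSP90 co-chaperone, went from 63.2 and 60.7 RPKM with DMSO to 43.7 and 40.3 with OTX-015 and 37.7 and 37 with BBC1115. It fell to 0.678 and 0.602 times DMSO, and Hsph1 (HSP105) to 0.617 and 0.785 times.

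The HSP90 pair differed between the compounds. Hsp90ab1, the constitutive form, was at 1079 and 1151 RPKM with DMSO, 1147 and 1045 with OTX-015, and 1369 and 1383 with BBC1115. Hsp90aa1, the inducible form, was at 369 and 394, then 385 and 357, then 469 and 491 RPKM. BBC1115 libraries were above all others for both genes, while OTX-015 and DMSO libraries overlapped. With BBC1115 the folds were 1.23 (adjusted p = 0.024, limma) and 1.26 (adjusted p = 0.00646), and with OTX-015 0.983 and 0.971. The call of Hsp90ab1 with BBC1115 was lost under 8 of 19 alternatives and that of Hsp90aa1 under 1. Stip1 (HOP), which hands clients from HSP70 to HSP90, was 1.48 times and Dnaja1 1.31 times DMSO with BBC1115. The direct difference of Hsp90ab1 between the compounds (log2 0.33) became -0.06 under quantile normalization.

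Of the factor genes, Hsf1 fell with OTX-015 and BBC1115. It was at 13.9 and 17 RPKM with DMSO, 14.1 and 13.5 with RVX-208, 9.83 and 9.26 with OTX-015, and 7.38 and 7.49 with BBC1115. The OTX-015 and BBC1115 libraries were below all others, at 0.616 times (adjusted p = 0.000334, limma) and 0.48 times DMSO (adjusted p = 8.13e-06). Hsf2, a relative that binds the same element, had folds of 1.01 and 1.1 with adjusted p of 0.907 and 0.32 (limma). Under upper-quartile scaling and quantile normalization Hsf2 was called higher with BBC1115.

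**Figure D2:**
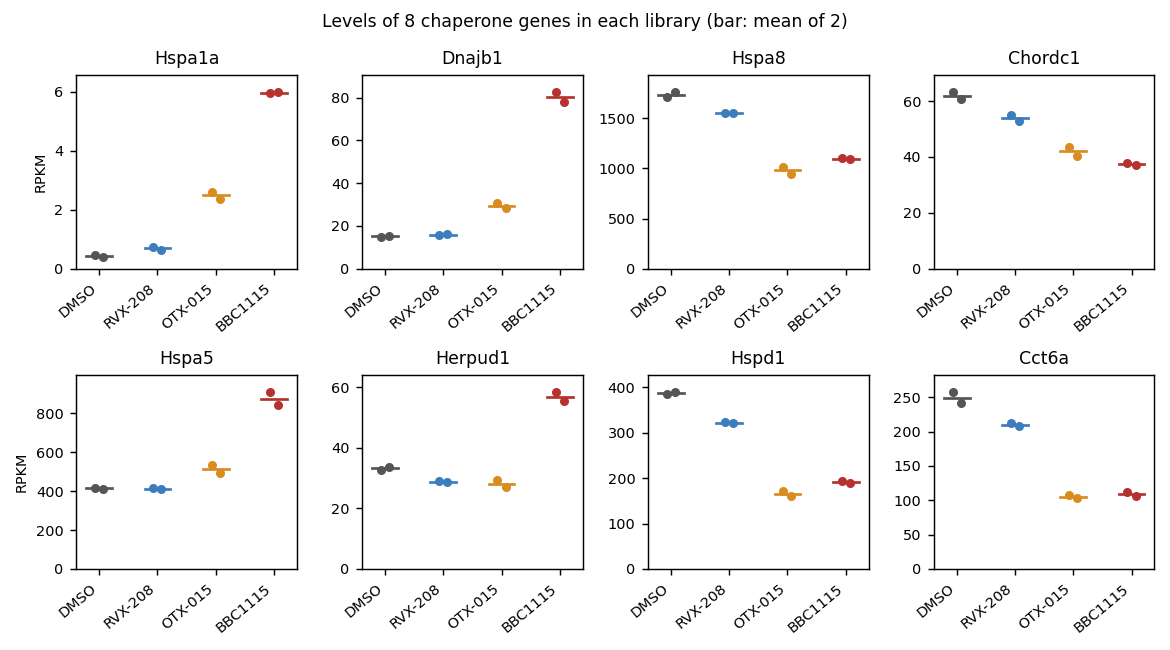
RPKM (y axis, from 0) of 8 chaperone genes in each of the 8 libraries, grouped by treatment (x axis), with a bar at the mean of 2 libraries. Dnajb1 reaches 82.6 and 78.1 RPKM with BBC1115, while Hspd1 and Cct6a lie lowest in the OTX-015 and BBC1115 libraries.

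All 8 CCT subunits fell with OTX-015, and 7 of the 8 fell with BBC1115, or 100% and 87.5%, beside 40% and 49.3% of all genes. As a class, the subunits were compared with all genes on the deposited scale. Their median log2 fold changes were -0.65 and -0.62, beside -0.13 and -0.25 for all genes. The largest drop in both was that of Cct6a, at 257 and 241 RPKM with DMSO, 212 and 208 with RVX-208, 107 and 103 with OTX-015, and 112 and 106 with BBC1115. Neither compound's libraries came near the DMSO pair, and the folds were 0.422 (adjusted p = 4.06e-07, limma) and 0.438 (adjusted p = 1.88e-07). Cct3 followed, from 182 and 183 RPKM to 92.3 and 82.1 with OTX-015 and 99.9 and 90.7 with BBC1115, at 0.477 and 0.521 times. Tcp1, the founding subunit, was at 0.625 and 0.593 times, Cct5 at 0.626 and 0.592, Cct4 at 0.641 and 0.708, and Cct7 at 0.72 and 0.752. Cct2, the most abundant, was least affected by OTX-015 at 0.745 times. It was at 0.844 times with BBC1115, a call that held under 13 of 19 alternatives. Under upper-quartile scaling the call was lost and the log2 fold change was 0.01. Cct8 missed the threshold with BBC1115, at 0.869 times DMSO (adjusted p = 0.0676, limma). In the assembled ring each subunit is present equally, but the messages ranged from 154 (Cct4) to 342 RPKM (Cct2) with DMSO, a ratio of 2.22, and the ratio of the highest to the lowest was 2.92 with OTX-015 and 3.03 with BBC1115. Between the compounds 0 of the 8 subunits passed the limma test, with Cct8 the nearest (log2 difference 0.24, 95% interval 0.04 to 0.45, adjusted p = 0.0511) and 1 at an unadjusted p under 0.05. Upper-quartile scaling called 4 as higher with BBC1115, and quantile normalization and TPM 2 as lower. The class fell against DMSO under every scaling, with 8 lower for OTX-015 and 6, 8 and 8 lower for BBC1115.

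Among the mitochondrial chaperones Hspa9, Hspd1 and Hspe1 fell with both compounds and Trap1, the mitochondrial HSP90, passed with neither. That was 75% lower with each compound, beside 40% (OTX-015) and 49.3% (BBC1115) of all genes. Hspd1 (HSP60) was at 385 and 389 RPKM with DMSO, 323 and 322 with RVX-208, 172 and 159.8 with OTX-015, and 194 and 189 with BBC1115. Hspe1 (HSP10), its partner and head-to-head neighbour, was at 208 and 172, then 144 and 149.9, then 79.2 and 77.8, then 107 and 99.4 RPKM. For both genes the groups stood in the order DMSO, RVX-208, BBC1115, OTX-015 with no overlap. Hspd1 was at 0.429 times DMSO with OTX-015 (adjusted p = 5.1e-07, limma) and 0.495 times with BBC1115 (adjusted p = 7.52e-07), and Hspe1 at 0.412 and 0.541 times. Of the 4 only Hspe1 passed the test between the compounds, 1.31 times higher with BBC1115 (adjusted p = 0.00873), a call lost without BBC1115 replicate 1. Upper-quartile scaling called 3 of the 4 higher with BBC1115 (Hspe1, Hspd1 and Trap1). Hspa9, which pulls proteins into the matrix, was at 187 and 191 RPKM with DMSO, 175 and 169 with RVX-208, 82.7 and 83.4 with OTX-015, and 85.3 and 81.9 with BBC1115. It was at 0.44 and 0.442 times DMSO, with a log2 difference between the compounds of 0.01 (95% interval -0.16 to 0.18). Trap1 had folds of 0.899 and 0.981, and with BBC1115 it was called higher under upper-quartile scaling (log2 0.23) and quantile normalization (0.19). The heat shock element of the overlapping Hspd1 and Hspe1 windows stood also in Chordc1 and Hsph1, which fell too. It stood in 0 of the windows of the cytosolic genes that rose, which says only that these letters are not in those windows. Hsp90aa1 and Hsp90ab1, called higher with BBC1115, had no window. Only exact matches of 3 units were searched, so whether these genes carry looser or more distant elements was not tested. Exons of Hspd1 and Hspe1 overlap by 112 bases on opposite strands, and 13 of the 50 genes overlap a protein-coding exon of another gene. The libraries are directional per the labels, but no source used here says whether counting used strand.

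Among ER chaperones and folding enzymes the called genes moved in both directions. With OTX-015 1 of 16 rose (Hspa5) and 5 fell (Sdf2l1, Dnajb11, Manf, Pdia6 and Canx). These shares, 6.25% and 31.2%, were below the 24.2% and 40% of all genes. With BBC1115 6 rose (Hspa5, Dnajb9, P4hb, Calr, Hyou1 and Creld2) and 4 fell (Dnajb11, Hspa13, Sdf2l1 and Canx). That was 37.5% and 25%, beside 26.4% and 49.3% of all genes. The split depended on scaling, with 4 higher and 2 lower (upper quartile), 4 and 2 (quantile) and 3 and 4 (TPM) for OTX-015, and 12 and 2, 9 and 3, and 8 and 3 for BBC1115. Against the OTX-015 level 9 genes were higher and 2 lower with BBC1115, and 13 and 2, 6 and 2, and 5 and 2 under the same scalings. As deposited, the shares were 56.2% and 12.5%, beside 14.2% and 29.7% of all genes. Calls over all genes moved with scaling too.

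Hspa5 encodes BiP, the HSP70 of the ER and a sentinel of the unfolded protein response. It was at 414 and 413 RPKM with DMSO, 416 and 409.9 with RVX-208, 535 and 494 with OTX-015, and 906 and 844 with BBC1115. The BBC1115 libraries lay above all others and the OTX-015 libraries above DMSO and RVX-208, which overlapped. The fold was 1.24 with OTX-015 (adjusted p = 0.0134, limma) and 2.11 with BBC1115 (adjusted p = 1.27e-06). The OTX-015 call was lost under 2 of 19 alternatives, in a fit of those 2 groups alone and without OTX-015 replicate 1. Dnajb9 (ERdj4), a J protein partner of BiP, was at 11.5 and 9.56 RPKM with DMSO, 11.1 and 10 with RVX-208, 10.8 and 8.89 with OTX-015, and 25.3 and 20.1 with BBC1115. Only the BBC1115 pair stood apart, at 2.16 times DMSO (adjusted p = 3e-05), while OTX-015 was at 0.934 times (adjusted p = 0.578). P4hb, a disulfide isomerase, was 1.55 times and Calr, the lectin chaperone calreticulin and the most abundant ER gene, 1.34 times DMSO with BBC1115. Calr rose from 1009 and 1011 RPKM to 1388 and 1318. Hyou1 (1.19 times) and Creld2 (1.17 times) passed narrowly.

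Other members of the ER class fell. Dnajb11 (ERdj3), also a BiP partner, was at 98.2 and 93.8 RPKM with DMSO, 72.3 and 66.1 with OTX-015, and 59.3 and 54.1 with BBC1115. The 3 groups did not overlap, and the folds were 0.721 (adjusted p = 0.000602, limma) and 0.591 (adjusted p = 9.75e-06). Hspa13 was at 0.652 times DMSO with BBC1115 (adjusted p = 0.000235) and 0.929 times with OTX-015. Manf, a secreted ER stress protein, was at 0.727 times with OTX-015 and 1.16 times with BBC1115 (adjusted p = 0.099), and differed between them by 1.6 times. Of the 7 ER folding genes with an ER stress element, Hspa5, Calr and Creld2 rose with BBC1115, Canx fell, and Hsp90b1 (1.11 times), Dnajc3 (1.05) and Pdia6 (0.944) did not pass. Both carriers of the second element went opposite ways with BBC1115, Herpud1 up and Dnajb11 down.

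**Figure D3:**
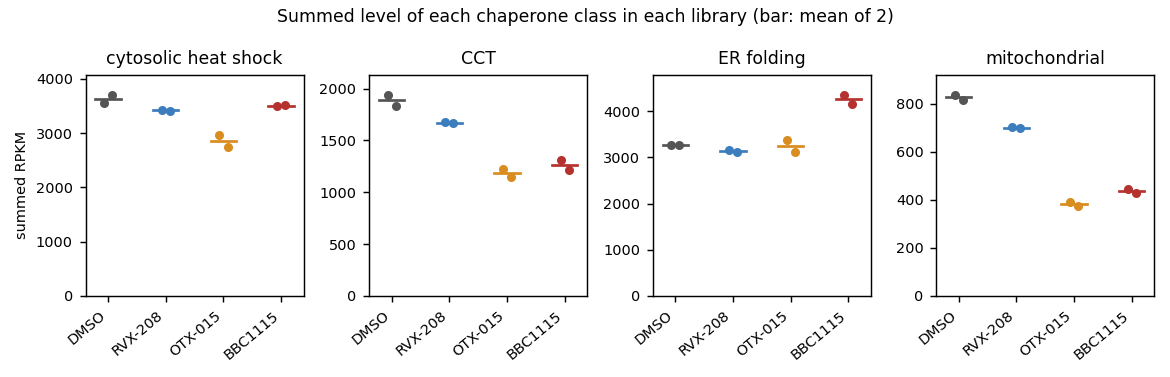
Summed RPKM (y axis, from 0) of the cytosolic, CCT, ER folding and mitochondrial classes in each library, by treatment (x axis), with a bar at the mean of 2. The ER sum is highest with BBC1115, at 4354 and 4147 RPKM, and the CCT and mitochondrial sums are lower with OTX-015 and BBC1115 than with DMSO.

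Summed over its 16 genes, the ER folding class was at 3268 ± 8.16 RPKM with DMSO, 3248 ± 179 with OTX-015 and 4251 ± 146 with BBC1115 (SD, n = 2). The BBC1115 sum was 130.1% of DMSO, and Hspa5 and Calr are its largest contributors there. The CCT sum was 88.7%, 62.9% and 66.8% of DMSO with RVX-208, OTX-015 and BBC1115. The mitochondrial sum was 84.7%, 46.2% and 52.9%, and the cytosolic sum 94.3%, 78.5% and 96.6%. These sums are not scaled to the RPKM total of a library, which differed between libraries. That total was 467673 and 430009 with DMSO, 418443 and 420757 with RVX-208, 409918 and 375973 with OTX-015, and 457950 and 417284 with BBC1115. All 50 genes together held 2.21% of the RPKM total with DMSO, 2.2% with RVX-208, 2.02% with OTX-015 and 2.23% with BBC1115.

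In ER-associated degradation, Sel1l and Syvn1 of the HRD1 complex rose with both compounds. The class of 5, Xbp1 included, had 2 higher and 2 lower with OTX-015 (40% each), beside 24.2% and 40% of all genes. Upper-quartile, quantile and TPM scaling gave 3 and 1, 3 and 0, and 3 and 1. With BBC1115 3 were higher and 1 lower (60% and 20%), beside 26.4% and 49.3%. Between the compounds 3 were higher and 1 lower with BBC1115 (60% and 20%, beside 14.2% and 29.7%), or 1 and 1 under TPM. Sel1l, the scaffold of the HRD1 complex, was at 23.8 and 28 RPKM with DMSO, 37.4 and 35.3 with OTX-015, and 43.6 and 48.9 with BBC1115. Syvn1, the ubiquitin ligase HRD1, was at 12.1 and 12.7, then 18.1 and 16.6, then 18.2 and 20 RPKM. Both genes were above DMSO in every such library, with folds of 1.4 and 1.79 for Sel1l and 1.4 and 1.55 for Syvn1. Herpud1 (HERP), which joins the complex under ER stress, was at 32.8 and 33.8 RPKM with DMSO, 29.1 and 28.6 with RVX-208, 29.3 and 27.1 with OTX-015, and 58.3 and 55.5 with BBC1115. It was 1.71 times DMSO with BBC1115 (adjusted p = 6.06e-06, limma) and 0.848 times with OTX-015 (adjusted p = 0.0266). Edem1, a lectin that extracts misfolded glycoproteins, had the opposite order, at 1.08 times with OTX-015 (adjusted p = 0.267) and 0.737 times with BBC1115 (adjusted p = 0.000595). Total Xbp1 message, in which the spliced form cannot be told apart, was at 0.77 times DMSO with OTX-015 (adjusted p = 0.00434) and 0.941 times with BBC1115 (adjusted p = 0.402).

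Compounds were compared directly over the same 9975 genes, with no matched dose. Higher with BBC1115 than with OTX-015 under each of 19 alternative settings were 9 genes (Hspa1a, Hspa1b, Hspa4, Dnajb1, Stip1, Hspa5, Dnajb9, Manf and Herpud1) and 2 were lower (Hspa13 and Edem1). The largest was Dnajb1 at 2.72 times, then Hspa1b at 2.46, Hspa1a at 2.4, Dnajb9 at 2.31 and Herpud1 at 2.02. Without OTX-015 replicate 2 or BBC1115 replicate 1 the median log2 difference of the 49 genes was 0.177 and 0.202, against 0.245 with all libraries. Over all genes it was -0.151 and -0.109, against -0.094. RVX-208 against OTX-015 gave 19 higher and 11 lower, beside 38.1% and 17.6% of all genes (55.7% in either), and all 8 CCT subunits were among the higher. The median log2 difference of the 49 genes in that comparison was 0.134, beside 0.14 over all genes. Without RVX-208 replicate 1, RVX-208 replicate 2 and OTX-015 replicate 1 it was 0.137, 0.149 and 0.202. Over all genes these fits gave 0.137, 0.143 and 0.202. BBC1115 against RVX-208 gave 19 higher and 17 lower, beside 23.9% and 49.6% (73.5% in either).

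**Figure D4:**
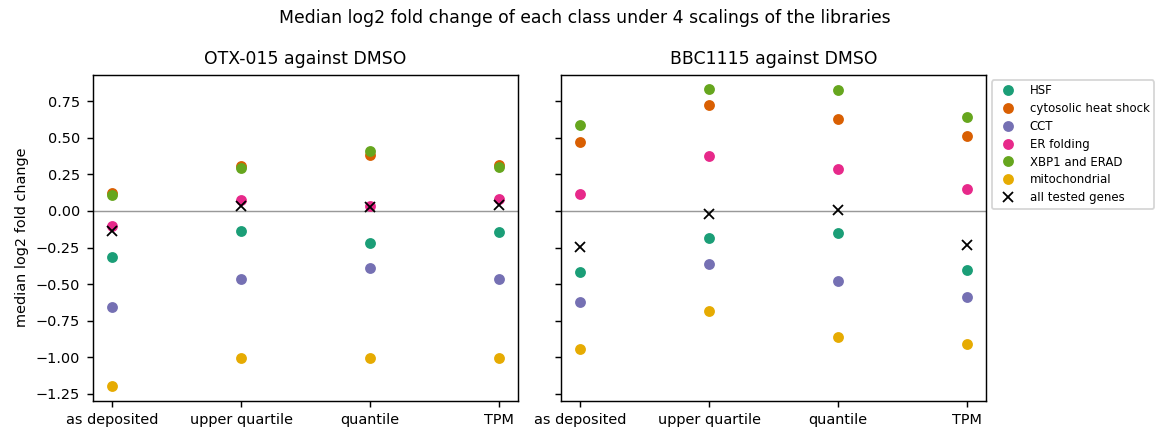
Median log2 fold change (y axis) of each chaperone class and of all tested genes under the deposited scale and 3 other scalings (x axis), for OTX-015 and BBC1115 against DMSO. CCT and mitochondrial medians lie below that of all genes under each scaling, and the ER folding median with OTX-015 changes sign, from -0.104 as deposited to 0.077 with upper quartiles.

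The partners of these chaperones were followed in 7 further lists. Their counts on the deposited scale are read against 24.2% higher and 40% lower of all genes with OTX-015, and 26.4% and 49.3% with BBC1115. Upper-quartile counts are read against 3561 higher and 3066 lower of all 9975 genes with OTX-015, and 3743 and 3960 with BBC1115. Among 21 HSP90 co-chaperones 4 rose and 12 fell with OTX-015 (19% and 57.1%), and 7 and 13 with BBC1115 (33.3% and 61.9%). Ruvbl2, an ATPase of the R2TP complex that works with HSP90, went from 107 ± 2.63 RPKM to 30.7 ± 1.94 with OTX-015 and 21 ± 0.883 with BBC1115 (SD, n = 2), and its partner Ruvbl1 from 72.9 ± 3.09 to 20.5 ± 1.73 and 14.3 ± 1.06. Both fell to 0.287 and 0.281 times DMSO with OTX-015 and 0.196 and 0.196 times with BBC1115. Of 22 tested HSP70 co-chaperones and J proteins, 4 rose and 9 fell with OTX-015 (18.2% and 40.9%), and 6 and 11 with BBC1115 (27.3% and 50%), close to the shares of all genes. Bag2, an HSP70 exchange factor, was at 0.249 and 0.177 times DMSO. Hspa2, another HSP70, stood at 9.91 RPKM with DMSO, 21.5 with OTX-015 and 32 with BBC1115, the last 3.23 times DMSO. Prefoldins, phosducin-like proteins and tubulin cofactors, which serve CCT, held 1 riser and 6 fallers of 14 with OTX-015 (7.14% and 42.9%) and 2 and 7 with BBC1115 (14.3% and 50%). Upper-quartile scaling gave 8 and 11, 8 and 9, and 5 and 5 for these 3 lists with OTX-015, and 7 and 12, 8 and 8, and 6 and 7 with BBC1115.

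Of 27 tested genes of ER folding and glycan processing, 4 rose and 11 fell with OTX-015 (14.8% and 40.7%) and 6 and 14 with BBC1115 (22.2% and 51.9%). The shares that fell were close to those of all genes, and upper-quartile scaling gave 8 and 9, and 10 and 9. Fkbp11, an ER prolyl isomerase, was at 0.285 and 0.302 times DMSO and Txndc5, a disulfide isomerase, at 0.455 and 0.361. Of 19 further degradation genes 5 rose and 4 fell with OTX-015 (26.3% and 21.1%), and 5 and 8 with BBC1115 (26.3% and 42.1%), or 8 and 2, and 9 and 4 under upper-quartile scaling. Herpud2 was 1.66 and 2.17 times higher and Derl2 at 0.667 and 0.566 times. Sensors and effectors of the unfolded protein response numbered 7 higher and 2 lower of 12 with either compound (58.3% and 16.7%), and 8 and 2, then 10 and 2, under upper-quartile scaling. Creb3 was 2.55 and 3.09 times DMSO. Ppp1r15a (GADD34), which restarts translation after stress, stood at 5.13 RPKM with DMSO, 10.8 with OTX-015 and 21.7 with BBC1115, the last 4.23 times DMSO. Ddit3 (CHOP) was listed at 0 in all DMSO and RVX-208 libraries, at 28 and 24.9 RPKM with OTX-015 and at 86.5 and 75 with BBC1115, and no fold is given. It is 1 of the 7 called higher, and passed the filter only through the OTX-015 and BBC1115 libraries. Whether a listed 0 means no reads was not tested. Dnajc19, of the mitochondrial list below, was listed at 40.2 RPKM in DMSO replicate 1 and at 0 in every other library, and did not pass the filter. Mitochondrial co-chaperones and proteases held 1 riser and 8 fallers of 14 with either compound (7.14% and 57.1%), and 3 and 7, then 4 and 8, under upper-quartile scaling. The matrix protease Clpp was at 0.376 and 0.271 times DMSO. With RVX-208 0 genes of these 7 lists passed the limma test.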

How the data were processed

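RNA-seq of 8 mouse libraries was deposited by the authors as 1 table of RPKM, reads per transcript length and library size, with 20484 gene symbols. STAR, Cufflinks and mm10 are named in the submitters' processing notes, without versions or roles, and the annotation behind the table is not stated there. The treatment label set each library's group.

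From the RPKM, genes reaching 1 in 2 or more libraries were kept (9975). A mean per group was fitted to log2(RPKM + 1) over all 8 libraries with limma 3.58.1 (R 4.3.3), with 4 degrees of freedom between libraries, 6.81 prior ones and a trended variance. Tests of 6 contrasts were two-sided, with Benjamini-Hochberg adjustment over the kept genes and a threshold of 0.05. The pseudocount of 1 shrinks the log2 fold change of low genes. The steps were tested on simulated data. The table holds no counts: depth was estimated from RPKM under 0.15 of genes with 1 transcript longer than 2500 bases, is approximate, and does not allow a count test.

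The members and the lists were chosen with earlier results of these data known. All 50 members may be named. From each further list, up to 3 called genes per comparison with DMSO were eligible, those with the largest log2 fold change, a group mean of at least 5 RPKM and no overlap of libraries. Gene positions came from GENCODE M21 on mm10, which matched all 50 symbols, and promoter windows from RefSeq on GRCm38.p6. Alternatives covered pseudocounts, filters, 3 scalings, the samples in the fit, the variance model, a replicate block and each library left out.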

Additional observations from a re-analysis of the deposited data

How the results depend on the processing

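Each count of changed chaperone genes and each member's log2 fold change was recomputed under 19 alternatives. Calls that held under all of them numbered 25 of 32 for OTX-015 against DMSO, 30 of 38 for BBC1115 against DMSO and 11 of 28 for BBC1115 against OTX-015. They numbered 18 of 30 for RVX-208 against OTX-015 and 28 of 36 for BBC1115 against RVX-208. Some genes not called in the main fit were called under 1 or more alternatives. In the same order of comparisons these were 8 of 17, 11 of 11, 17 of 21, 4 of 19 and 13 of 13. Counts that moved by over 1.5 times with all libraries in the fit were the following. Genes higher with OTX-015 numbered 15, 16 and 14 under upper-quartile, quantile and TPM scaling, against 9. Over all genes they numbered 3561, 3642 and 3366, against 2418. Upper-quartile scaling gave 29 genes higher with BBC1115 than with DMSO and 30 higher than with RVX-208, against 19 each. Over all genes these were 3743 and 3414, against 2629 and 2382. TPM gave 13 higher and 7 lower for BBC1115 against OTX-015, against 24 and 4. Over all genes TPM gave 890 and 4310, against 1413 and 2964. With 1 library left out, genes lower with RVX-208 than with DMSO ranged from 0 to 3, BBC1115 against OTX-015 from 14 to 26 higher and from 2 to 4 lower, and RVX-208 against OTX-015 from 4 to 11 lower. The lone library left in a group is assumed to vary like the other groups.

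A log2 fold change was counted as reversed where its sign changed and the gene was called in the main or the alternative fit. Those that reversed all did so under a scaling, and the cause was not tested. Sign changes of genes called in neither fit were not counted. With OTX-015 against DMSO, Hsp90ab1 became 0.27 (quantile) and Pdia4 0.16 (upper quartile) and 0.2 (quantile). With BBC1115 against DMSO under upper-quartile scaling, Cct2 became 0.01, Pdia6 0.17, Canx 0.03, Xbp1 0.17 and Trap1 0.23, and Trap1 became 0.19 under quantile normalization. With BBC1115 against OTX-015 under quantile normalization, Hsp90ab1 became -0.06 and Calr -0.02. With BBC1115 against RVX-208, Hsph1 became 0 (quantile), and Cct8 0.22, Pdia4 0.21 and Canx 0.02 (upper quartile).

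With the replicate number as a block, 11 genes were higher and 23 lower with OTX-015, 20 and 20 with BBC1115, and 0 and 0 with RVX-208. For BBC1115 against OTX-015 it gave 28 and 4. Over all 9975 genes the block gave 2511 and 4167, 2705 and 5004, 13 and 20, and 1616 and 3125 in the same order. Same-numbered libraries share a number only: the correlation of their deviations was 0.524 between DMSO and BBC1115 and -0.084 to 0.055 between the other groups. Depth limits Hspa1a and Hspa1b with DMSO (15 to 34 reads per library) and Hspb1 most.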
